A study of Mus musculus with 7 samples.

Results

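CD8 T cells that their authors annotated as exhausted made up 1549 of the 28644 cells of the series, or 5.41%, and 18% of the 8602 cells with a CD8 annotation. They were chosen by that annotation alone, one of 23 in the deposited cell table, and are described against the 5076 cells annotated as precursor-exhausted and the 475 annotated as proliferating. The cells came from 7 mice with CT-2A tumours, a mouse glioma cell line grown in the brain. 4 mice carried Sall1CreERT2, a tamoxifen-inducible Cre under the control of Sall1, a gene that marks microglia in the brain, together with Siglecefl/fl (Siglece KO, written KO here). The other 3 carried Siglecefl/fl without the driver (WT). All 7 were 8 to 12 weeks old when tumour cells were placed and received 2.5 mg tamoxifen per injection, daily from day 7 and every other day from day 21. The KO group is therefore a deletion meant for microglia and not for T cells, and the floxed allele and tamoxifen were common to both groups. Dissociated tissue had been frozen and thawed, the live immune cells were sorted by CD45 and CD11b (either marker sufficed), and each sample gave 1 library of droplet 5′ single-cell RNA sequencing.

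T cell exhaustion is the state that CD8 T cells enter under lasting antigen stimulation in tumours and chronic infection. Such cells keep inhibitory receptors such as PD-1 (Pdcd1) and TIM-3 (Havcr2) on their surface, depend on the transcription factor TOX, and make less cytokine than effector cells. They are renewed from a precursor pool that is usually recognised by the transcription factor TCF-1 (Tcf7) and the receptor Slamf6, and a fraction of the progeny divides.

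The largest ratios between the exhausted and the precursor-exhausted cells that held in every mouse were those of Hspa1b and Hspa1a, so the promoters of the inducible HSP70 pair are shown first. Hspa1a and Hspa1b encode near-identical HSP70 chaperones on chromosome 17, and reads of one can be counted for the other, so their values cannot be fully separated. The 150 bases before the start of each gene follow from RefSeq (GRCm38.p6, minus strand, written 5′ to 3′), Hspa1a at chr17:34972157-34972306 and Hspa1b at chr17:34959239-34959388. Capitals mark the inverted repeat of the heat shock element, searched as GAANNTTC or TTCNNGAA, which cover both strands.
Hspa1a: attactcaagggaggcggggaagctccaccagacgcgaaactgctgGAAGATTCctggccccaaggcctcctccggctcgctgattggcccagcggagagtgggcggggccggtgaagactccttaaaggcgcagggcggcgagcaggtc
Hspa1b: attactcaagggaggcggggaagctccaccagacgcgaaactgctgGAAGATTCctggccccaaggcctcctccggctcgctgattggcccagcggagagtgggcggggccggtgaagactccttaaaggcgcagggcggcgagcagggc
The printed windows were identical at 149 of 150 bases, and the 250 bases before the start at 247. The repeat was found within 250 bases before the start of Hspa1a, Hspa1b and Hsph1 and was not found in those windows of Dnajb1 and Bag3, and Hsp90aa1 had no entry. Of all 32851 promoter windows of the same length, 12.8% held it. A match of letters is a description and does not show that a factor binds there.

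The libraries held 1410 to 5856 cells, with 16037214 to 38966377 UMIs (unique molecular identifiers, which count captured RNA molecules). Sex was read from the RNA. Xist exceeded the summed Y-linked genes in KO replicates 1 and 2 and WT replicate 3, which were taken as female. It lay below them in the other mice, taken as male. Of the exhausted cells, 43, 181, 593 and 569 came from KO replicates 1 to 4 and 9, 37 and 117 from WT replicates 1 to 3, with 148751 to 3289442 UMIs in the 6 mice that had at least 20 such cells. WT replicate 1, with 9 cells and 45494 UMIs, was left out of the fits and of the means per gene. Medians of 4966 UMIs and 2025 genes per exhausted cell stood against 5568.5 UMIs in precursor-exhausted and 10372 in proliferating cells. RNA of other cells was present in every library. Lyz2, a lysozyme gene of myeloid cells, had a UMI in 25% of exhausted cells and in 24.7% of B cells after each cell was thinned to 2000 UMIs (46.3% and 53.0% before thinning, at medians of 4966 and 7302 UMIs). All 11 monocyte or macrophage markers were detected in the exhausted cells, at a summed level of 451 to 1753 CPM (UMIs per 1000000 UMIs of the same cells) in KO and 993 to 1150 CPM in WT. B cell markers, of which Pax5 was at 0 and the other 6 were detected, summed to 23.6 to 47.3 CPM in KO and 10.8 and 101 CPM in WT. Cells with 5 or more UMIs over both lists made up 36.6% of the exhausted cells, from 13.8% in KO replicate 3 to 74.0% in KO replicate 2 among the 6 mice. The part of this RNA in the results below was not tested beyond the alternative that left these cells out. The same barcode occurred in more than 1 library for 460 barcodes, which touched 56 exhausted cells, and 3 barcodes were shared between exhausted cells of different mice. Siglece itself, a sialic acid receptor of myeloid cells, had 1, 4, 1 and 3 UMIs in the exhausted cells of KO replicates 1 to 4 and none in the WT mice, where a count of 0 (taken as up to 3 UMIs) allows up to 20.2 CPM in WT replicate 2 and 4.62 CPM in WT replicate 3. These cells therefore hold too little of the transcript to check the labels. In the annotation Microglia, the KO mice had few cells to check instead, 10, 7, 0 and 15 in replicates 1 to 4. These held 114595, 26904, 0 and 98584 UMIs. The WT mice had 44, 48 and 39 such cells with 368269, 311226 and 274608 UMIs. Siglece had 2, 1, 0 and 0 UMIs in those cells of KO replicates 1 to 4 and 18, 16 and 4 in WT. The counts of this annotation were too low in KO to check the deletion. Low-quality or activated microglia, annotated separately with at least 20 cells in 5 mice, were not part of this check.

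All 4 markers of the annotation were present, although not all of them set it apart. Cd8a, which encodes a chain of the CD8 co-receptor, was at 987, 840, 1107 and 1149 CPM in KO replicates 1 to 4 and at 726 and 1309 CPM in WT replicates 2 and 3. Its mean of 1020 ± 213 CPM (SD, n = 6 mice) was the highest of the 23 annotations, next to 982 ± 154 CPM (n = 7) in precursor-exhausted cells, a difference within the spread between mice. Pdcd1 was at 1264, 1044, 1104 and 1067 CPM in the KO mice and at 787 and 969 CPM in the WT mice. Its mean of 1039 ± 158 CPM was also the highest of all annotations, followed by 884 ± 235 CPM in CD4 Tfh cells, with 646 ± 225 CPM in precursor-exhausted and 531 ± 213 CPM in proliferating CD8 T cells. Tox averaged 156 ± 95.3 CPM, second to 167 ± 92.6 CPM in precursor-exhausted cells, and Havcr2 averaged 131 ± 53.2 CPM, ninth of the 23. Havcr2 was higher in low-quality or activated microglia (309 ± 109 CPM), CD4 Tfh cells (244 ± 81.1 CPM) and cDC1 (219 ± 40.6 CPM), among others. Tox thus ranked high in exhausted cells, and Havcr2 did not set them apart.

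At a common depth of 2000 UMIs, which kept 1532 of 1549 exhausted and 5029 of 5076 precursor-exhausted cells, Pdcd1 had a UMI in 78.3% of exhausted and 66.3% of precursor-exhausted cells (91.4% and 87.9% unthinned). The corresponding shares were 16.8% and 18.7% for Havcr2 and 31.4% and 30.6% for Tox. These shares pool the cells of all mice, as do those after thinning below. Means over mice with at least 20 cells were 74.6% and 60.2% for Pdcd1, 19.3% and 19.1% for Havcr2 and 22.7% and 22.9% for Tox. B cells gave 1.44%, 1.97% and 1.05% for the 3 genes. Whether those shares come from free RNA, from doublets or from the B cells themselves was not tested. Tcf7 and Slamf6, the usual marks of the precursor pool, were scarce in both states. Tcf7 averaged 20.9 ± 17.5 CPM (n = 6) in exhausted and 14.2 ± 15.6 CPM (n = 7) in precursor-exhausted cells, against 145 ± 20.8 CPM in naive or early activated CD8 T cells. Slamf6 had a UMI in 0.653% of exhausted and 0.835% of precursor-exhausted cells after thinning, below its 14.3% in B cells. The cells named precursor-exhausted therefore did not carry more Tcf7 than the exhausted ones, and the names of both are used here as the authors gave them.

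**Figure D1:**
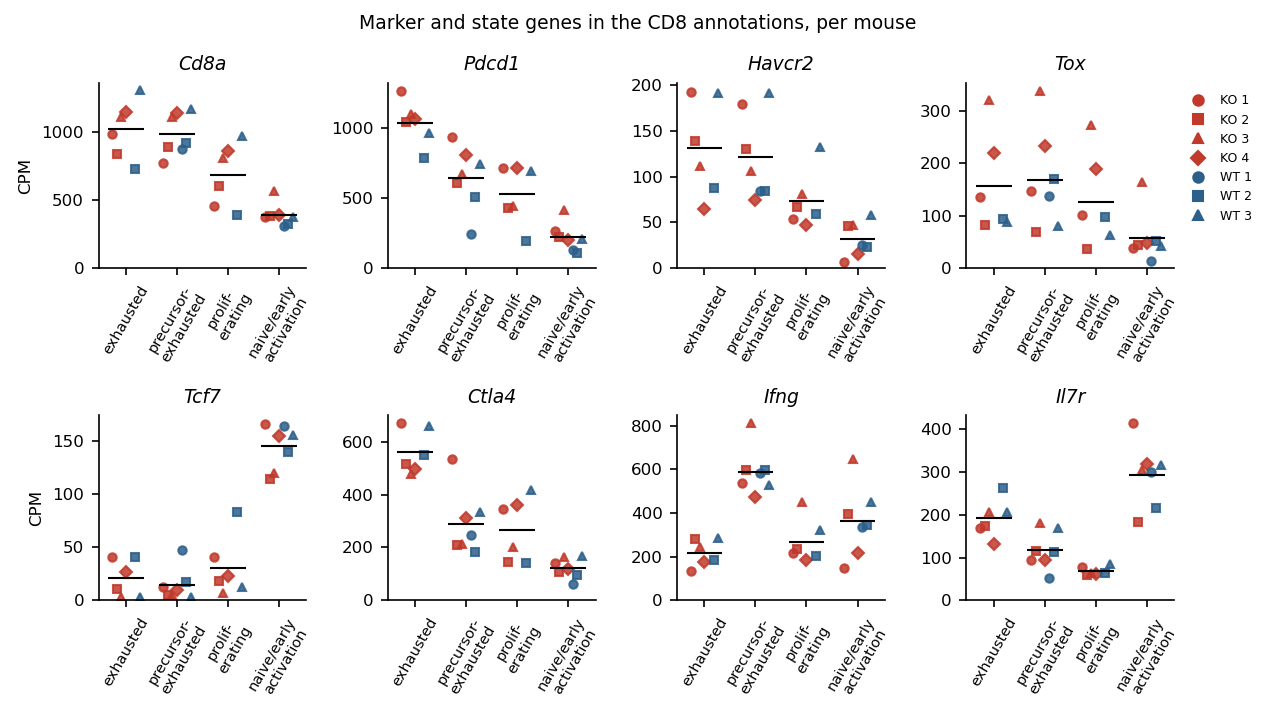
CPM of 8 genes (one panel each) in the CD8 annotations; each point is a mouse with at least 20 cells of that annotation, red for KO and blue for WT, with the shape giving the replicate, and bars are means over mice. Pdcd1 and Ctla4 are highest in exhausted cells, Tcf7 is highest in naive or early activated cells, and Ifng is highest in precursor-exhausted cells.

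Between exhausted and precursor-exhausted cells of the same mouse, few genes differed by a wide margin. Hspa1b, Hspa1a, Hsph1 and Dnajb1, which encode chaperones and co-chaperones, were the furthest below in exhausted cells among genes 2-fold apart in every mouse, and Nr4a3, Fosl2 and Vps37b the furthest above. A gene was counted when its log2 ratio of CPM, with 10 CPM added to both sides, was at least 2-fold the same way in all 6 mice with 20 or more cells in both states. Genes with a mean of at least 50 CPM in either state were compared. Of 3057 genes, 7 were higher (0.229%) and 8 lower (0.262%) by this rule. With TMM scaling, which balances the bulk of genes between samples, the split was 4 higher and 9 lower, and 12 of the 15 genes were shared. Without the cells carrying markers of other cells it was 4 higher and 11 lower in the 5 mice left, with 10 of 15 shared. How the annotation was made is not given in the sources used here, and since it may rest on the expression of these genes, the contrast carries no test.

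Hspa1b was at 172, 331, 204 and 121 CPM in the exhausted cells of KO replicates 1 to 4 and at 234 and 223 CPM in WT replicates 2 and 3. In precursor-exhausted cells of the same mice it was at 2096, 2642, 4560 and 2366 CPM and at 3152 and 1813 CPM. Every precursor-exhausted value lay above every exhausted value, and the mean log2 ratio was -3.63 ± 0.60 (SD, n = 6). Hspa1a fell from 3903 ± 1099 to 452 ± 219 CPM, a log2 ratio of -3.21 ± 0.92, lower in 6 of 6 mice. Other chaperone genes were among the 8, though no list of heat shock genes was tested as a group. Hsph1, an HSP110 exchange factor for HSP70, had a log2 ratio of -2.68 ± 0.73, and Dnajb1, an HSP40 co-chaperone, -2.50 ± 0.53. Bag3, another HSP70 co-chaperone, had -2.12 ± 0.63 and Hsp90aa1, the inducible HSP90, -1.47 ± 0.30. The other genes of the group were Phlda1, at -1.60 ± 0.50, and the antisense gene Gm10501, at -2.10 ± 0.57 (chr17:34976899-34981788, minus strand, GENCODE M21), which the naming rule leaves out and which is named after its values were seen. Hspa1a, Hspa1b, Hsph1 and Dnajb1 passed the rule in all 14 alternatives, among them G1 cells only and the set without cells carrying markers of other cells.

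After thinning, Hspa1a or Hspa1b had a UMI in 26.7% of exhausted cells (95% exact binomial interval 24.5 to 29.0%), 85.8% of precursor-exhausted cells (84.8 to 86.7%) and 67.4% of proliferating cells (62.9 to 71.6%). Unthinned, the shares were 38.2%, 89.6% and 74.9%. The intervals cover counting error only. B cells, which also express these genes, gave 63.4%. Over all annotations, Hspa1b was lowest in exhausted CD8 T cells (214 ± 70.3 CPM, n = 6), level with tumour or stromal cells (222 ± 61.4 CPM, n = 5), and the next was 1088 ± 233 CPM in proliferating macrophages. Hspa1a was second lowest at 452 ± 219 CPM, after tumour or stromal cells at 63.5 ± 52.0 CPM. The other T cell annotations sat far higher: Hspa1b reached 5313 ± 1249 CPM in naive or early activated CD4 T cells and 3739 ± 793 CPM in naive or early activated CD8 T cells.

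**Figure D2:**
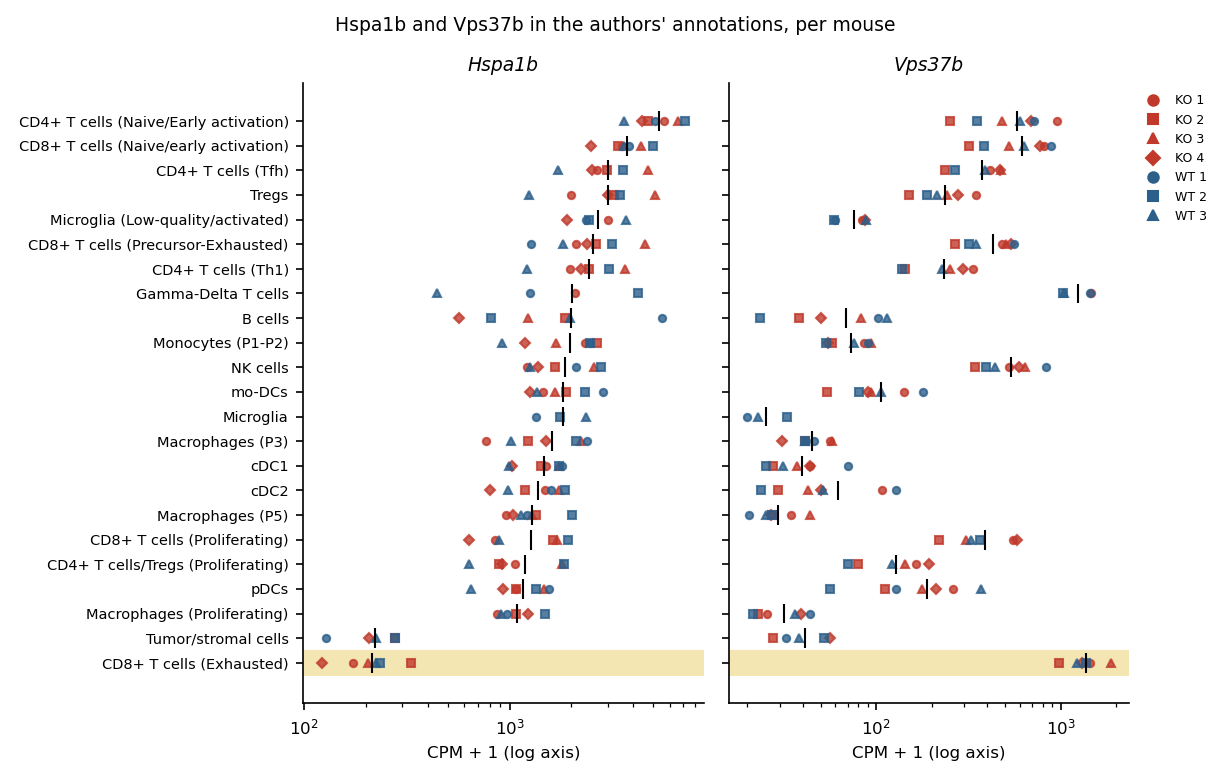
Hspa1b (left) and Vps37b (right) in CPM + 1 on a log axis in the 23 annotations; each point is a mouse with at least 20 cells of that annotation (red KO, blue WT), black bars are means, and the exhausted CD8 T cells are shaded. Exhausted cells hold the lowest mean of Hspa1b and the highest mean of Vps37b.

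Of the 13 genes of a list of genes that respond to tissue dissociation, all of which passed the filter, 3 were at least 2-fold lower in every mouse (Hspa1a, Hspa1b and Hsp90aa1) and none higher. 8 were lower in all 6 mice, where 14.1% of all genes were, and the median log2 ratio was -0.63 against 0.02 over all genes. Immediate early genes of the list did not move as one. Jun was at 699 CPM against 2108 CPM in precursor-exhausted cells (log2 ratio -1.53 ± 0.48), and Atf3 at 85.1 against 247 CPM (-1.47 ± 0.61). Fos had a log2 ratio of -0.84 ± 0.20, while Junb was higher in 6 of 6 mice (0.49 ± 0.15) and Jund was not shifted in one direction (-0.07 ± 0.22, higher in 3 of 6). Both states were drawn from the same library in each mouse, and the part of tissue handling in these differences was not tested.

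The genes on the higher side included 2 transcription factors. Nr4a3, an orphan nuclear receptor induced by T cell receptor signalling, was at 277, 215, 433 and 309 CPM in KO replicates 1 to 4 and 269 and 229 CPM in WT replicates 2 and 3. In the precursor-exhausted cells of these mice it was at 84.1, 47.4, 62.2 and 100 CPM and at 51.7 and 86.5 CPM. The states did not overlap, and the log2 ratio was 1.87 ± 0.48. Fosl2, a member of the AP-1 family, averaged 465 ± 123 against 128 ± 26.1 CPM (1.77 ± 0.36). Vps37b, a subunit of the ESCRT-I sorting complex, averaged 1362 ± 294 against 410 ± 113 CPM (1.73 ± 0.29), and its level in exhausted cells was the highest of the 23 annotations, next to 1240 ± 239 CPM (n = 4) in gamma-delta T cells, from which it did not differ beyond the spread. P2ry10, a lymphocyte receptor of the G protein-coupled kind, had a log2 ratio of 1.65 ± 0.39. Gramd3 (1.66 ± 0.44), Ubald2 (1.33 ± 0.24) and Jmy (1.22 ± 0.11), an actin nucleator, completed the 7. Nr4a3, Fosl2 and Vps37b passed in 14 of 14 alternatives, and the others in fewer. At 2000 UMIs, Nr4a3 had a UMI in 40.1% of exhausted and 11.0% of precursor-exhausted cells, and Fosl2 in 58.0% and 18.4% (64.2% and 25.5%, and 80.8% and 38.8%, unthinned). In B cells both were at 3.81%. Over all annotations, Fosl2 was second to gamma-delta T cells (531 ± 103 CPM, n = 4), and Nr4a3 was below its mean in cDC2 (561 ± 220 CPM, n = 7), CD4 Tfh cells and mo-DCs.

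**Figure D3:**
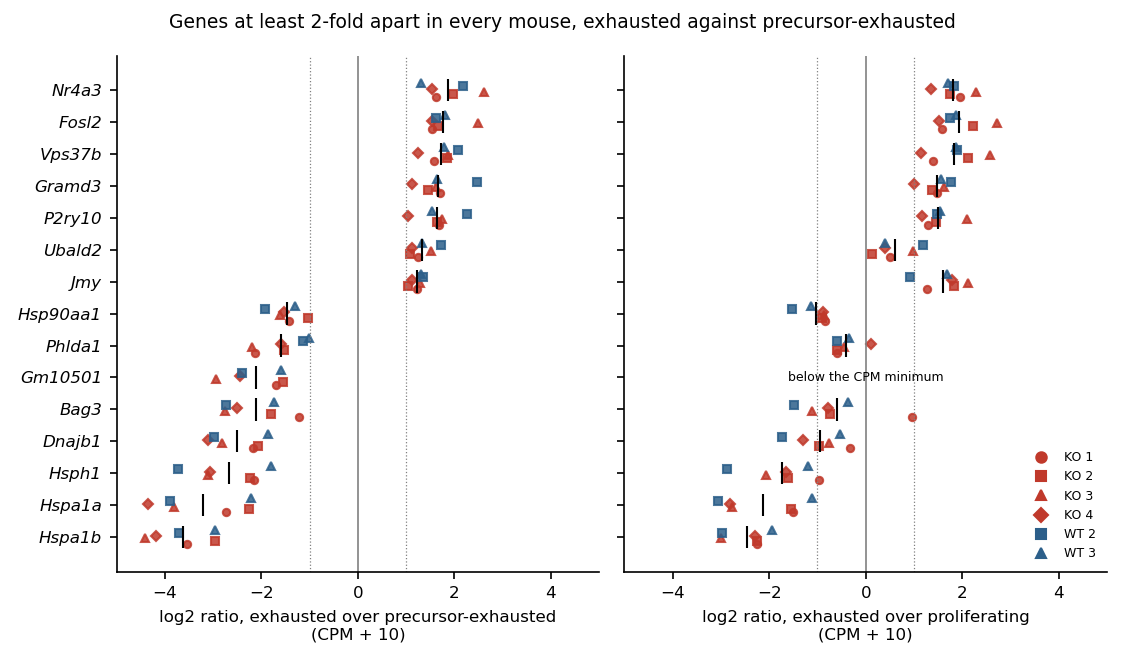
Log2 ratio of CPM + 10 in exhausted cells over precursor-exhausted cells (left) and over proliferating cells (right) for the 15 genes at least 2-fold apart in every mouse on the left; points are mice (red KO, blue WT), black bars are means and dotted lines mark 2-fold. Hspa1b has a mean of -3.63 on the left and -2.46 on the right, and Nr4a3 1.87 and 1.81.

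Inhibitory receptors and ectoenzymes differed little between the states. Of 12 listed, 8 passed the filter, 2 were higher in every mouse, none lower, and none reached 2-fold in all, with a median log2 ratio of -0.01 against 0.02 over all genes. Over all genes, 17.4% were higher and 14.1% lower in every mouse, and 2 of 8 is too few to set apart from that share. The 2 were Pdcd1 (0.55 ± 0.17) and Ctla4 (0.98 ± 0.44, 562 against 297 CPM), a competitor of CD28 for its ligands. Havcr2 (0.02 ± 0.10), Lag3 (-0.03 ± 0.61), Tigit (0.19 ± 0.33), Entpd1, which encodes the ectoenzyme CD39 (-0.20 ± 0.34), Cd38 (-0.33 ± 0.33) and Cd160 (-0.27 ± 0.65) did not shift one way in every mouse. Ctla4 had a UMI in 55.9% of exhausted and 32.2% of precursor-exhausted cells after thinning (78.4% and 57.6% before).

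Of 16 exhaustion transcription factors, 12 passed the filter, 3 were higher and 2 lower in every mouse, near the shares over all genes (17.4% and 14.1%), and the median log2 ratio was -0.05. All 3 higher ones belong to the NR4A family: Nr4a3 (above), Nr4a2 (1.05 ± 0.33, 563 against 258 CPM) and Nr4a1 (0.57 ± 0.46). Bhlhe40 was higher in 5 of 6 mice (0.71 ± 0.48). Id2, an inhibitor of E proteins, was lower in all 6 (-0.60 ± 0.25), as was Prdm1, which encodes Blimp-1 (-0.41 ± 0.36, 37.7 against 51.3 CPM). Prdm1 met the minimum of 50 CPM only in precursor-exhausted cells, which fixes the direction of its mean. Tox (-0.12 ± 0.35), Nfatc1 (-0.04 ± 0.22) and Batf (-0.14 ± 0.24) were level. Tox2, Irf4, Eomes and Maf were below the filter.

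Of 14 cytotoxic effectors and cytokines, all passed the filter, 3 were higher and 3 lower in every mouse, near the shares over all genes (17.4% and 14.1%), and the median was 0.09. Ifng, which encodes interferon-gamma, was at 134, 281, 244 and 174 CPM in KO replicates 1 to 4 and at 187 and 286 CPM in WT replicates 2 and 3. Precursor-exhausted cells held 538, 597, 814 and 474 CPM and 598 and 528 CPM, above every exhausted value, with a log2 ratio of -1.43 ± 0.40. Tnf (-0.55 ± 0.32) and the pore-forming perforin gene Prf1 (-0.93 ± 1.13, 129 against 212 CPM) were also lower in all 6 mice. The granzymes Gzmb (0.14 ± 0.22) and Gzma (0.47 ± 1.23) did not shift in every mouse, whereas Gzmk was higher in all 6 (0.33 ± 0.21). The protease inhibitor genes Serpinb9 (1.14 ± 0.50) and Serpinb6b (0.70 ± 0.30) were the other 2 on the higher side. After thinning, Ifng had a UMI in 26.1% of exhausted and 46.0% of precursor-exhausted cells (45.7% and 65.5% before), with 1.57% in B cells.

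Of 10 chemokines and chemokine receptors, 5 passed the filter, of which 3 were lower and 1 higher in every mouse (14.1% and 17.4% of all genes). Ccl3 (-1.85 ± 0.87) and Ccl4 (-1.38 ± 0.70, 427 against 1071 CPM) were lower in all 6 mice, as was the receptor Cxcr6 (-0.63 ± 0.29), while Ccl5 was higher in all 6 (0.60 ± 0.43, 6027 against 3873 CPM). Costimulatory receptors were higher in every mouse in 4 of 9 members (17.4% of all genes) and lower in none: Icos (1.29 ± 0.30), the TNF receptor family member Tnfrsf1b (1.10 ± 0.17), Cd27 (0.41 ± 0.25) and Tnfrsf18 (0.23 ± 0.16). The median of that list was 0.23. Of 11 cytokine receptors, 9 passed, and Il21r (0.83 ± 0.42) and the interferon-gamma receptor gene Ifngr1 (0.78 ± 0.16) were higher in every mouse, while Il10ra was lower (-0.47 ± 0.45), counts near the shares of 17.4% and 14.1% over all genes.

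Of 16 precursor and memory genes, only 6 passed the filter, Tcf7, Lef1, Slamf6 and Ccr7 not among them. Il7r, the receptor for the survival cytokine interleukin 7, was higher in exhausted cells of all 6 mice (0.56 ± 0.35, 192 against 128 CPM), as was Satb1 (0.50 ± 0.23), and Klf2, a factor of circulating T cells, was lower (-1.03 ± 0.42, 99.1 against 199 CPM). Interferon response genes leaned higher: 13 of 28 passed, 7 were higher in every mouse and none lower, and the median was 0.33. Isg15 (0.87 ± 0.32), Irf7 (0.70 ± 0.49) and Samhd1 (0.53 ± 0.28) were among the 7. Over all genes, 17.4% were higher in every mouse. Glycolysis genes leaned lower: 9 of 15 passed and 8 were lower in every mouse, where 14.1% of all genes were, with a median of -0.56. Tpi1 (-0.96 ± 0.48), Pgk1 (-0.76 ± 0.45), Eno1 (-0.62 ± 0.22) and Ldha, lactate dehydrogenase A (-0.60 ± 0.39), were examples, and Gpi1 was the exception (-0.09 ± 0.09). Proliferation genes were also lower in every mouse in 8 of the 10 that passed (14.1% of all genes), among 23 listed, with a median of -0.84. They were led by Stmn1 (-1.70 ± 0.83) and Mki67 (-1.15 ± 0.70, 32.3 against 80.6 CPM). Mki67 met the minimum of 50 CPM only in precursor-exhausted cells. A gene that passes only there must have the lower mean in exhausted cells, so the count of this list is not read against that share. The deposited cell cycle calls put 74.9% of exhausted cells in G1, 21.1% in S and 4.00% in G2M, against 66.0%, 27.7% and 6.28% of precursor-exhausted cells, whose median depth was higher. Antigen presentation by MHC class I changed little (median 0.12), with H2-K1 (0.34 ± 0.09) and H2-D1 (0.24 ± 0.10) higher in all 6 mice. Tissue residency genes and killer lectin-like receptors had medians of 0.15 and -0.18 and no member at 2-fold.

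Against proliferating cells of the same mouse, a group named for division, the exhausted cells were lower in every member of the proliferation list. More genes were lower than higher. Of 3438 genes, 24 were at least 2-fold higher (0.698%) and 240 lower (6.98%) in all 6 mice. The exhausted cells are the same in both contrasts, so the values stand side by side and their overlap is no result. The lower genes were led by the histone gene Hist1h2ap (-6.22 ± 0.27), Pclaf, Stmn1, H2ac8, Birc5, Ube2c, H1f5, Mki67, Ccna2 and Hist1h2ao. Mki67, the gene of the Ki-67 antigen, was at 13.4 to 61.0 CPM in exhausted and at 793 to 1102 CPM in proliferating cells, a log2 ratio of -4.53 ± 0.62. All 23 proliferation genes passed the filter here, and 22 were at least 2-fold lower in every mouse. No proliferating cell was called G1, and 70.9% were called G2M, so this contrast could not be made within G1.

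The leading named genes on the higher side against proliferating cells were Ccl5, Fosl2, Neurl3, Vps37b, Nr4a3, Mxd4, Osgin1, Sult2b1, Ifi213 and Tnfrsf1b. Ccl5, a chemokine that draws T cells and myeloid cells, was at 10372, 3253, 7476 and 5641 CPM in exhausted cells of KO replicates 1 to 4 and 4813 and 4606 CPM in WT replicates 2 and 3. In proliferating cells it was at 794, 603, 1499 and 901 CPM and 1366 and 812 CPM, below every exhausted value, and the log2 ratio was 2.56 ± 0.62. Neurl3, a ubiquitin ligase, averaged 377 ± 31.5 against 94.6 ± 23.6 CPM (1.92 ± 0.37), and Mxd4, a MYC antagonist of the MAX network, 162 ± 58.9 against 39.5 ± 11.4 CPM (1.77 ± 0.49). Fosl2 (1.94 ± 0.46), Vps37b (1.83 ± 0.51) and Nr4a3 (1.81 ± 0.31) were on the higher side here too. Icos (1.52 ± 0.32) and Il7r (1.34 ± 0.34) also passed the rule. Ratios against proliferating cells were below 0 too for Hspa1b (-2.46 ± 0.43) and Hspa1a (-2.13 ± 0.84), while Dnajb1 (-0.94 ± 0.51) and Bag3 (-0.59 ± 0.85) did not reach 2-fold in every mouse.

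Inhibitory receptors were higher than in proliferating cells in every mouse for 6 of the 8 that passed the filter, where 26.4% of all genes were, with a median of 0.79 against -0.01 over all genes and none at 2-fold throughout. The 6 were Pdcd1 (1.07 ± 0.56), Ctla4 (1.15 ± 0.58), Tigit (0.88 ± 0.30), Cd38 (0.77 ± 0.34), Havcr2 (0.74 ± 0.50) and Entpd1 (0.49 ± 0.26). Among the other lists, medians above 0 ran from 0.20 (cytotoxic effectors and cytokines) to 0.67 (costimulatory receptors). Only the glycolysis and proliferation lists lay below 0. The T cell genes Cd8a (1020 against 683 CPM) and Cd3e (1490 against 959 CPM) also had higher means in exhausted cells. A higher level than in proliferating cells was thus not particular to inhibitory receptors. Glycolysis genes were lower in every mouse for 8 of 9, with a median of -0.85, and Tpi1 was the 1 at 2-fold (-1.45 ± 0.46). Over all genes, 29.9% were lower in every mouse. In contrast to the comparison with precursor-exhausted cells, Ifng (-0.27 ± 0.40) and Ccl4 (-0.22 ± 0.53) were not lower in all 6 mice.

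T cell receptor beta variable genes gave a coarse view of receptor use, which is not clonality. A cell was assigned the Trbv gene with the most UMIs, at least 2. In KO replicate 4, Trbv26 was called in 55.6% of the 405 assigned exhausted cells and 60.4% of the 883 assigned precursor-exhausted cells, and in WT replicate 3 Trbv15 was called in 60.8% of 97 and 53.7% of 380. The leading gene was also the same in both states in KO replicates 1 (Trbv16), 2 (Trbv13-2) and 3 (Trbv13-1), and it differed in WT replicate 2 (Trbv26 and Trbv5, each 20% of 25 and 120 cells). The shared leading gene was also that of proliferating cells in KO replicates 1, 2 and 4 and WT replicate 3, but not in KO replicate 3. In naive or early activated cells it led in KO replicate 2 and WT replicate 3, but not in KO replicates 1, 3 and 4. A shared variable gene does not show a shared clone.

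The genotype comparison asked whether loss of Siglece under the microglial driver went with a different number or state of exhausted CD8 T cells. They made up 13.4%, 10.8%, 19.96% and 25.2% of the CD8 T cells in KO replicates 1 to 4 and 7.14%, 7.37% and 15.7% in WT replicates 1 to 3. The group means were 17.3 ± 6.50% (n = 4) and 10.1 ± 4.87% (n = 3), and 2 KO mice lay above all WT mice. They were the male KO mice, replicates 3 and 4, and the part of sex in the shares was not tested. An exact permutation test over the 35 ways to divide the mice (two-sided, smallest possible p 0.0286) gave p = 0.171, or 0.229 after Benjamini-Hochberg adjustment over the 4 CD8 annotations, so no difference was shown. Of all sorted cells, the share was 7.17 ± 4.69% in KO and 1.37 ± 1.41% in WT (exact permutation p = 0.114). The 4 KO mice lay between 3.05% and 12.5%, all above the 3 WT mice, which lay between 0.307% and 2.97%. Relative to exhausted plus precursor-exhausted cells alone, the shares were 23.1 ± 7.52% and 23.2 ± 5.95% (exact permutation p = 0.971), an alternative added after the data were seen.

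**Figure D4:**
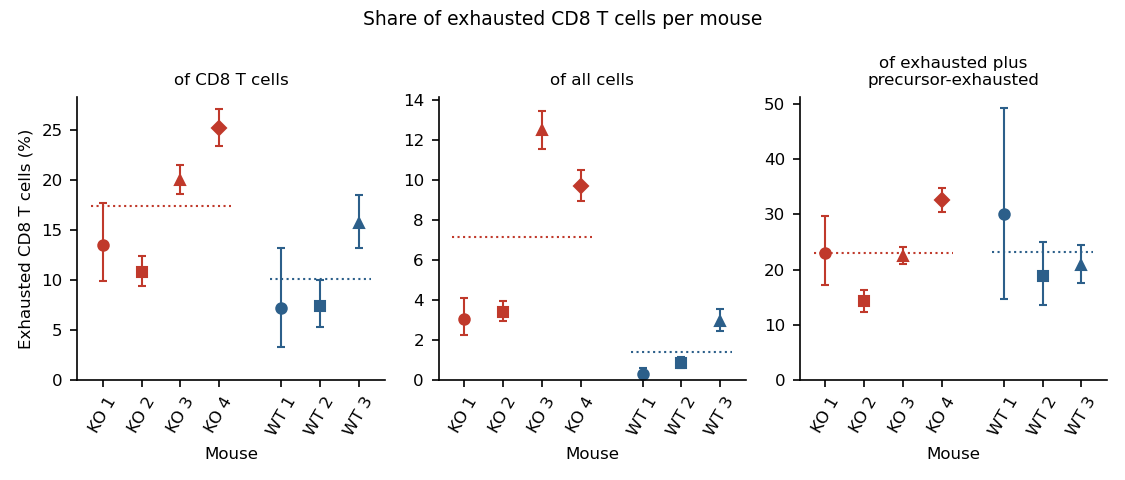
Exhausted CD8 T cells as a percent of CD8 T cells (left), of all cells (middle) and of exhausted plus precursor-exhausted cells (right) in each mouse, with 95% exact binomial intervals that cover counting error only; dotted lines are group means. KO replicates 3 and 4 are highest among CD8 T cells at 19.96% and 25.2%, and the group means on the right are 23.1% and 23.2%.

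Within the exhausted cells, 1 gene of 7403 (0.0135%) passed an adjusted p under 0.05 between 4 KO and 2 WT mice (edgeR quasi-likelihood test on sums per mouse, Benjamini-Hochberg adjustment), and 358 had an unadjusted p under 0.05. DESeq2 also called 1. The gene was Gm6969, a processed pseudogene (chr12:24638669-24639010, minus strand, GENCODE M21), whose reads may be shared with its parent gene. It was at 3.38, 11.8, 10.0 and 18.5 CPM in KO replicates 1 to 4 and at 86.3 and 100 CPM in WT replicates 2 and 3, from 1, 8, 33 and 51 and from 13 and 65 UMIs. The log2 change was -2.94 (SE 0.34, edgeR adjusted p = 0.00133), lower in 4 of 4 KO mice. The adjusted p was above the threshold without WT replicate 3 (log2 change -2.81, adjusted p = 0.364) and in both sets without cells carrying markers of other cells (-2.66 and -2.91, adjusted p = 0.413 and 0.289), with changes close to the full one, and it was kept in 15 of 18 alternatives, over which the adjusted p ranged from 1.59e-14 to 0.413. Among the 18, the minimum of 10 cells per mouse kept the mice of the main fit and could not differ from it. WT replicate 1, which had too few exhausted cells to enter, was low in Gm6969 wherever it could be measured. Over its 17 annotations with at least 20 cells, Gm6969 had a median of 4.07 CPM and a highest value of 19.5 CPM, in the range of the KO mice (medians 2.87 to 11.6 CPM), whereas WT replicates 2 and 3 had medians of 71.8 and 68.3 CPM. In precursor-exhausted cells, where all 7 mice entered, WT replicate 1 was at 5.29 CPM and Gm6969 did not pass (log2 change -2.95, SE 0.74, edgeR adjusted p = 1.00). Gm6969 was thus high in WT replicates 2 and 3 in T cells, NK cells, dendritic cells and macrophages, though not in every annotation. Tumour or stromal cells held 1.34 and 2.61 CPM, and the lowest annotation of WT replicate 2 held 0 CPM. Gm6969 did not follow the genotype in WT replicate 1.

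The genes next in rank did not pass in the main fit. Without the filter on low counts, Il12rb2, Gm26532, Bcl2l1 and Mt2 passed (edgeR adjusted p = 0.0118, 0.0157, 0.0205 and 9.15e-08). Among those higher in KO, Chd2, a chromatin remodeller, was at 102, 101, 100 and 87.8 CPM in KO and 41.5 and 49.5 CPM in WT (log2 change 1.00, SE 0.25, edgeR adjusted p = 0.597). Its log2 change was 0.53 and 0.52 in both sets without cells carrying markers of other cells, and 1.48 with equal cells per mouse. Cd160, an inhibitory receptor, was at 84.5, 72.1, 78.1 and 78.8 CPM in KO and 53.8 and 24.6 CPM in WT (1.25, SE 0.31, edgeR adjusted p = 0.597). Pacsin1 (2.32, SE 0.61), Gm26532 (1.56, SE 0.41) and Rab3ip (1.18, SE 0.32) had an edgeR adjusted p of 0.749 each. These 4 differences were smaller without 1 of the WT mice: without WT replicate 3, which leaves 1 WT mouse in the fit, the log2 difference was 0.51 for Cd160 (edgeR adjusted p = 0.864), 1.54 for Pacsin1, 1.05 for Gm26532 and 0.66 for Rab3ip. Among those lower in KO, Il12rb2, a chain of the interleukin 12 receptor, was at 64.2, 88.7, 52.3 and 54.2 CPM in KO and 134 and 143 CPM in WT (-1.20, SE 0.25), and Bcl2l1, which encodes the survival protein BCL-xL, was at 18.4 to 37.2 CPM in KO and 67.8 and 80.7 CPM in WT (-1.46, SE 0.31), each with an edgeR adjusted p of 0.337. Mt2, a metallothionein, had -1.97 (SE 0.37, adjusted p = 0.337) and was at 132 CPM in WT replicate 3 and 33.6 CPM in WT replicate 2. Without WT replicate 3 the log2 change of Mt2 was -0.39, and without WT replicate 2 it was -2.38 (adjusted p = 0.000101). Either fit has 1 WT mouse, which is assumed to vary like the KO mice. Without KO replicate 2, Il12rb2 passed (log2 change -1.39, edgeR adjusted p = 0.0261). Ern1, the stress sensor IRE1, had -1.05 (SE 0.23, adjusted p = 0.470). The groups did not overlap for any of these 9 genes, as for 10.9% of all genes with KO above WT and 6.54% with KO below.

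The 4 markers did not pass either. Pdcd1 was higher in all 4 KO mice than in both WT mice (1120 ± 99.5 CPM, n = 4, against 878 ± 129 CPM, n = 2), with a log2 change of 0.30 (SE 0.16, edgeR adjusted p = 0.968). Tox averaged 189 ± 104 against 91.0 ± 4.48 CPM (1.09, SE 0.66, adjusted p = 0.968), and KO replicate 2, at 81.8 CPM, lay below both WT mice at 94.1 and 87.8 CPM. Cd8a (-0.05, SE 0.21) and Havcr2 (-0.41, SE 0.50) had an adjusted p of 1.00 each, and their direction changed with the mice used.

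**Figure D5:**
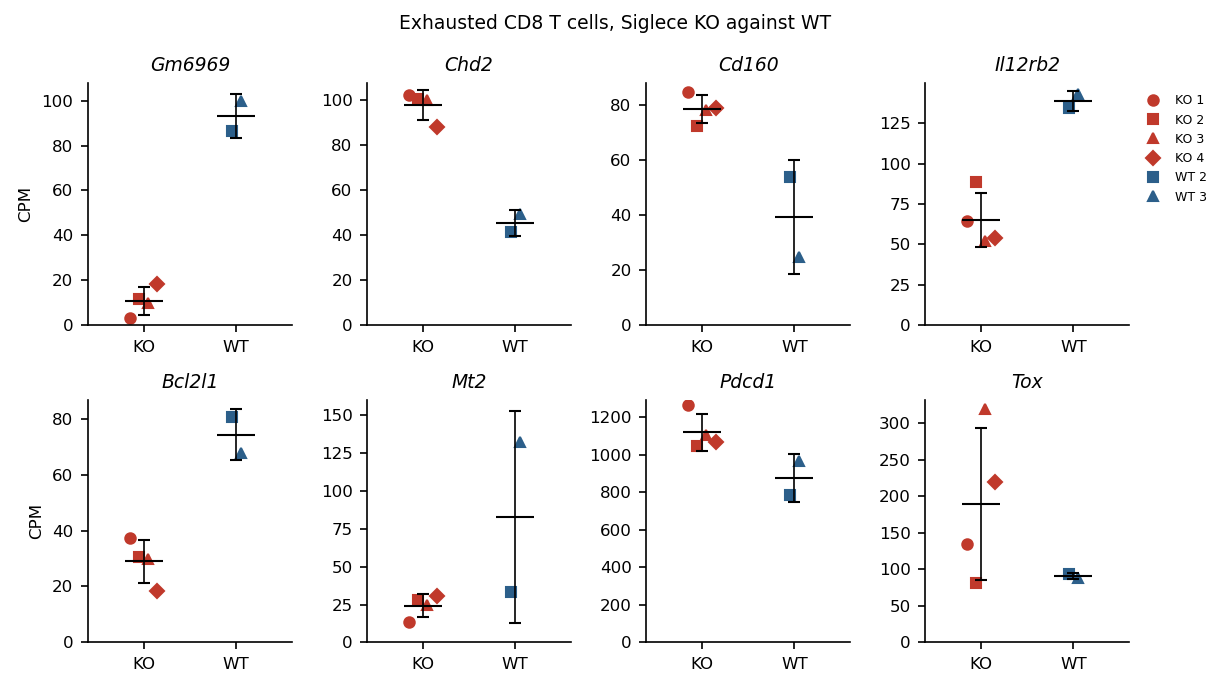
CPM of 8 genes in exhausted CD8 T cells of the 4 KO (red) and 2 WT (blue) mice with at least 20 such cells; bars are mean ± SD. Gm6969 separates the groups by the widest margin as a ratio (3.38 to 18.5 against 86.3 and 100 CPM), and Mt2 is high in 1 WT mouse.

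No member of the 14 gene lists was called between genotypes in the main fit. The median log2 change over all genes was 0.01, with 51.2% of genes above and 48.8% below 0. Inhibitory receptors had a median of 0.30, with 6 of 11 tested members above 0, and 4 had all KO mice above both WT mice (10.9% of all genes). That median was 0.10 without WT replicate 2, 0.79 without WT replicate 3 and 0.01 without cells carrying markers of other cells. The last set, here and for the lists below, also lost WT replicate 2, which had 19 cells left, and so held 1 WT mouse. The removal of cells and the loss of that mouse cannot be told apart in it. Exhaustion transcription factors had 0.15 (9 of 15 above 0), which ranged from 0.05 without KO replicate 1 to 0.45 without WT replicate 3 and was -0.08 without cells carrying other markers. Cytotoxic effectors and cytokines had a median of -0.31 (10 of 14 below 0), which was -0.58 without WT replicate 2, 0.01 without WT replicate 3 and -0.79 without cells carrying other markers. Glycolysis genes had -0.22 (10 of 13 below 0), which was -0.26 without WT replicate 2, -0.07 without KO replicate 3 and turned to 0.10 without WT replicate 3. Interferon response genes had -0.22 (18 of 25 below 0), which was -0.12 without WT replicate 2, -0.51 without WT replicate 3 and 0.11 without cells carrying other markers. With a term for sex in the fit, the medians of these lists, in the order given, were 0.32, 0.18, -0.28, -0.20 and -0.22. The medians moved with single mice, WT replicate 3 above all, which was also the only female WT mouse. The other lists lay between -0.18 (MHC class I presentation) and 0.25 (killer lectin-like receptors, -0.05 without WT replicate 3). Precursor and memory genes went from -0.04 to -0.60 and dissociation genes from 0.18 to 0.53 without WT replicate 3, and the latter to -0.01 without WT replicate 2. Proliferation genes went from 0.19 to 0.40 without WT replicate 3 and to -0.06 without WT replicate 2. Chemokines, costimulatory receptors, cytokine receptors and tissue residency genes, between -0.17 and -0.07, each changed sign when 1 or another mouse was left out.

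The other CD8 states showed as little. Between genotypes, 0 of 10825 genes passed in precursor-exhausted cells (edgeR, 7 mice; 0%, with 415 at an unadjusted p under 0.05, and 0 by DESeq2) and 0 of 8268 in proliferating cells (edgeR, 6 mice; 0%, with 303 under 0.05 unadjusted, and 1 by DESeq2). An interaction term tested whether the KO effect differed between exhausted and precursor-exhausted cells, and 2 of 10977 genes (0.0182%) passed, Trbv29 and Igkv6-17. Trbv29 is a T cell receptor variable gene and Igkv6-17 an immunoglobulin variable gene, and why they passed was not tested. For Cd160 the KO effect was -0.10 in precursor-exhausted cells, where 7 mice entered, and the difference of the effects over 6 mice was 1.05 (SE 0.33, edgeR adjusted p = 1.00). For Pdcd1 the effects were 0.30 and 0.58, and the difference was 0.10 (SE 0.13, adjusted p = 1.00) over the 6 mice of that fit.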

How the data were processed

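UMIs per gene and cell were measured in 7 libraries, 1 per mouse. The deposited matrix holds expected counts, of which 7.50% of the values above 0 were not whole numbers (tolerance 0.001), and whose totals differ between libraries as in unscaled data. The submitters' processing notes name FastQC 0.11.5, STAR 2.7.10a, STARsolo and the build mm10, and no role for each. The filters on cells, the treatment of doublets and the method behind the annotation are not given in the sources used here. The deposited cell table gives detected genes, and mitochondrial and ribosomal percent, per cell as the authors computed them, and it supplied the annotation and the cell cycle phase. No doublet caller was run.

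UMIs were summed per mouse and annotation and rounded to whole numbers. Mice with fewer than 20 cells were left out. Genotypes were compared in edgeR 4.0.16 (R 4.3.3) with TMM scaling, filterByExpr and robust quasi-likelihood dispersions, calling genes at a Benjamini-Hochberg adjusted p under 0.05. The interaction fit had 1 term per mouse. DESeq2 1.42.0 was an alternative. States were compared by log2 ratios of CPM within each mouse (pseudocount 10 CPM, mean of at least 50 CPM in either state). Shares were compared by exact permutation. The edgeR fit and the rule for ratios were run on simulated data to check the code, and no detection rate is given here. Cells were thinned to 2000 UMIs for shares of cells with a gene.

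Named genes are the 4 markers, genes called between genotypes with the 5 of smallest p in each direction, and members of the gene lists. Also named are the 10 of largest ratio in each direction among those 2-fold apart in every mouse. T cell receptor variable genes, ribosomal protein genes, clone names and genes named Gm and a number were left out of these ratio genes. All members of 4 lists and up to 4 of every other list were to be named. Some members of those 4 lists are not printed, and more than 4 are named from the dissociation and glycolysis lists. The members and lists were chosen with earlier results of these data known. Of 249 list genes, 248 were matched by symbol. Each library is taken as 1 mouse, as the labels number them; where nothing says that samples are separate animals, p-values measure only the spread between samples. A t-SNE embedding, which the authors deposited as scores per cell, was not used. Promoter sequences are from RefSeq (GRCm38.p6) and gene positions from GENCODE M21, both of the assembly that mm10 names.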

Additional observations from a re-analysis of the deposited data

Results flagged for a closer look

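In 52 groups of 4 to 6 mice, 4 held 1 mouse far from the rest, where chance alone flags about 1 group in 20. In exhausted cells of the 6 mice, Ctsw, a lymphocyte cathepsin gene, was at 1020 CPM in KO replicate 2 and at 741 to 811 CPM in the others. Gzmf, a granzyme gene, was at 2013 CPM in WT replicate 3 and at 26.9 to 711 CPM in the others, and WT replicate 3 was also highest in precursor-exhausted cells (2519 CPM). Satb1 was at 55.4 CPM in KO replicate 2, below 78.1 to 87.9 CPM elsewhere. Chd2 was at 87.8 CPM in KO replicate 4, below 100 to 102 CPM in the other KO mice.

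The KO effect differed between exhausted and precursor-exhausted cells for 2 genes (edgeR interaction term, 6 mice), and for 0 without KO replicate 4 or without WT replicate 2. Trbv29 was also not called without KO replicate 3 or without WT replicate 3. For Trbv29 the difference of the log2 changes was 10.08 (SE 1.76, adjusted p = 0.00823). It had no UMI in the exhausted cells of WT replicates 2 and 3, so the fitted value depends on the prior count. It was at 3.38 to 14.6 CPM in exhausted cells of the KO mice, and in precursor-exhausted cells at 0 to 7.08 CPM in KO and 44.0 and 15.3 CPM in WT replicates 2 and 3. For Igkv6-17, an immunoglobulin gene, the difference was -4.20 (SE 0.45, adjusted p = 8.40e-08). Apart from 0.0805 CPM in precursor-exhausted cells of KO replicate 3, it was present in 2 mice of the fit: at 40.9 CPM in exhausted and 539 CPM in precursor-exhausted cells of KO replicate 4, and at 175 and 121 CPM in WT replicate 2. In B cells of the same mice it was at 5513 and 10543 CPM. The part of free RNA in this result was not tested.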

How the results depend on the processing

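In exhausted cells, the 1 gene called between genotypes became 14 without a filter on low counts, 3 without cells carrying markers of other cells (a fit with 1 WT mouse, assumed to vary like the KO mice), 0 in that set when mice with 10 cells were kept, and 0 (without WT replicate 3) to 6 (without WT replicate 2) when 1 mouse was left out. In precursor-exhausted cells the count went from 0 to 46 without the filter and 0 to 2 with a mouse left out. In proliferating cells it went from 0 to 14 without the filter, 1 with DESeq2 and 0 to 3 with a mouse left out. The differing KO effects, 2 genes, ranged from 0 to 5 with a mouse left out. With a replicate block over the shared numbers, 4, 20 and 2 genes passed in exhausted, precursor-exhausted and proliferating cells. The same mice without the block gave 4, 2 and 2. Gm6969 was among the 20 in precursor-exhausted cells with the block and was not called in those mice without it. With a term for sex, 1 gene passed in exhausted cells, Gm6969 (edgeR adjusted p = 0.0129). The log2 change of Tox went from 1.09 to 0.72 with that term. Correlations of deviations from the group means between same-numbered mice were -0.03 and -0.002 in exhausted and 0.05 and -0.02 in proliferating cells. With 2 WT mice in those fits, the deviations of the WT mice mirror each other, so these correlations cannot decide on pairing. In precursor-exhausted cells they were 0.11, 0.07 and -0.05, not all above 0.1. The numbers were not taken to pair the mice. The 15 genes 2-fold apart from precursor-exhausted cells became 8 with a pseudocount of 50 CPM. The 264 apart from proliferating cells became 143 with that pseudocount and 173 with a minimum of 100 CPM. The share, 7.28 points higher in KO, became -0.13 points among exhausted plus precursor-exhausted cells. The log2 change of Cd8a turned from -0.05 to 0.088 with all 7 mice and 0.0061 without cells carrying other markers (10 cells per mouse), and ranged from -0.40 to 0.47 with a mouse left out (above 0 without KO replicate 2 or WT replicate 3). That of Havcr2 turned from -0.41 to 0.049 with equal cells per mouse, and ranged from -0.74 to 0.41 with a mouse left out (above 0 without WT replicate 3). Where the cause is not the smaller set itself, the cause was not tested. The fit with all 7 mice, the set with 10 cells and the last denominator were chosen after seeing the data. Of the 14 genes followed between genotypes (10 by rank and the 4 markers), no other changed direction. List members were followed by their medians only. The 2 WT mice with at least 20 exhausted cells, which had 37 and 117, limit what the genotype comparison could detect. The contrast with proliferating cells in G1 was not run, since none were called G1.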
